A study of Mus musculus with 8 samples.

Results

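The 9 genes described here are expressed mainly by astrocytes in the mouse brain: the connexin genes *Gjb6*, *Gja1* and *Gjb2*, the water channel gene *Aqp4*, the glutamate transporter genes *Slc1a2* and *Slc1a3*, the GABA transporter gene *Slc6a11*, and the enzyme genes *Glul* and *Aldoc*. They were chosen by name, for the function of their products, from the 50686 genes of the count table. The choice was made with earlier results of these data known. All 9 genes were among the 16018 tested. RNA-seq had been made from the ventral hippocampus of 8-week-old male C57BL/6J mice (C57B6/J in the labels), 1 mouse per library. The 4 vehicle libraries (replicates 1 to 4) came from mice injected with vehicle, and the 4 corticosterone libraries (replicates 5 to 8) from mice injected with 3 mg/kg corticosterone, the main glucocorticoid of rodents. All mice were killed 3 h after the injection. No line, allele or transgene distinguished the groups, the tissue was taken whole and cells were not sorted.

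Astrocytes are coupled into networks by gap junctions, channels built from connexins, through which ions and small metabolites pass from cell to cell. They also take up the glutamate and part of the GABA that neurons release, turn glutamate into glutamine, and line blood vessels with endfeet that are rich in water channels. Glucocorticoids act through the glucocorticoid and mineralocorticoid receptors, which bind DNA and change transcription, and astrocytes of the hippocampus carry the glucocorticoid receptor. The comparison asks how these transcripts differed between mice injected with corticosterone and mice injected with vehicle.

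*Gjb6* and *Gjb2* are neighbours on the minus strand of chromosome 14, 18600 bases apart in the GENCODE annotation of GRCm38, and *Gja1* lies on the plus strand of chromosome 10. The sequences around their start sites (RefSeq, GRCm38.p6, from 250 bases before to 50 bases after the start) are shown because the connexin genes are the family that the comparisons below turn on. Each is written 5′ to 3′ on the strand of the gene, and capitals mark CG dinucleotides. The windows are chr14:57133562-57133861 (minus strand) for *Gjb6*, chr10:56377050-56377349 (plus strand) for *Gja1* and chr14:57104653-57104952 (minus strand) for *Gjb2*.
Gjb6: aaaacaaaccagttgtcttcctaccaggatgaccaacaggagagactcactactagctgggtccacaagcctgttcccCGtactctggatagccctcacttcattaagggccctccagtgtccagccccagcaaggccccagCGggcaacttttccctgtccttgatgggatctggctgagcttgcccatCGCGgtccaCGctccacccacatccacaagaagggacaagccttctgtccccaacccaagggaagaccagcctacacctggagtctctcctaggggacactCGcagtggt
Gja1: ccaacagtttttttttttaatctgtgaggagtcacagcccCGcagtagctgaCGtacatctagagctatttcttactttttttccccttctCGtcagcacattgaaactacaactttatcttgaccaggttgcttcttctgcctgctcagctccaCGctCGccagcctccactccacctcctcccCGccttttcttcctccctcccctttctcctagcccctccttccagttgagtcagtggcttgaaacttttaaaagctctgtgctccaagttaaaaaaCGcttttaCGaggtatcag
Gjb2: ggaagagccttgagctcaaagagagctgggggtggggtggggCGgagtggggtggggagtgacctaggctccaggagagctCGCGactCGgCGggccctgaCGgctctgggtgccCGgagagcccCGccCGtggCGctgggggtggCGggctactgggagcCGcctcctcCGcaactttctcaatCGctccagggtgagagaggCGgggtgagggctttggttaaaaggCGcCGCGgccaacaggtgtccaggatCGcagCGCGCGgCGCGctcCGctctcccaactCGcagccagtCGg

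The *Gjb2* window held 27 CG dinucleotides and was 70% G or C, and 15.5% of the 32851 promoters in the RefSeq table held at least as many. The *Gjb6* window held 6 (57.3% G or C) and the *Gja1* window held 8 (47.7% G or C), which 56.4% and 48.6% of promoters reached. The palindromic glucocorticoid response element, the half-site AGAACA, any 3 bases and its reverse complement, searched as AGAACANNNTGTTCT on both strands, was in 3 of the 32851 promoters (0.00913%), and a relaxed form, GNACANNNTGTNC, was in 156 (0.475%). The table holds 9 windows for 8 of the genes described, since it lists *Aldoc* at 2 start sites, and neither form was in any of the 9. The half-site alone, which is contained in the full element, was in 6233 promoters (19%) and in 1 of the 9 windows, that of *Slc1a3*, at -24 to -19 from the start. These are matches of letters only, and elements outside these windows were not searched.

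Of the 9 genes, *Gjb6* stood out, with 1.36 times as many reads in corticosterone as in vehicle libraries, and every corticosterone library was above every vehicle library. *Gja1* and *Slc6a11* stood at 0.903 and 0.909 times their vehicle level, again with no overlap between the groups, and the other 6 genes overlapped. By edgeR's quasi-likelihood test with Benjamini-Hochberg adjustment over the 16018 genes, 0 of the 9 had an adjusted p value under 0.05. That test called 1 gene in all (0.00624% of those tested), *Fkbp5*, a classic glucocorticoid target that encodes a co-chaperone of the receptor. *Fkbp5* had 1957 ± 301 normalized reads in vehicle and 3309.6 ± 159 in corticosterone libraries (mean ± SD, n = 4 each), a log2 fold change of 0.76 and an adjusted p value of 0.0481. At an unadjusted p value under 0.05, edgeR counted 3 of the 9 genes, 1 higher (*Gjb6*) and 2 lower (*Gja1* and *Slc6a11*), against 9.03% of all genes tested. The same 3 were those whose groups did not overlap, against 3.66% of all genes (1.99% higher and 1.68% lower). Because the 9 genes were chosen with earlier results of these data known, these shares are not an independent test. The median log2 fold change of the 9 was -0.07, and that of all genes tested was 0.00.

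Between 17492159 and 19931987 reads per library were counted on genes. Corticosterone 5 stood apart from the other libraries of its group: on the first principal component (33.7% of the variance) it lay at -19.2, where the other corticosterone libraries lay at 18.9 to 23.5 and the vehicle libraries at -24.8 to 5.11. Without it, edgeR called 1651 genes (10.2% of those tested). Several results below are therefore also given without it. Alignment measures moved with the groups too: reads that aligned to more than 1 place made up 0.0699% to 0.111% in vehicle and 0.042% to 0.0536% in corticosterone libraries, and reads not aligned 6.35% to 7.13% in vehicle libraries, 6.45% in corticosterone 5 and 7.77% to 8.09% in corticosterone 6 to 8. Their part in the results was not tested. Values are reads normalized by the TMM method to a common library size. In bulk tissue, a lower value can come from fewer cells of a type or from less RNA per cell, and these cannot be told apart.

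**Figure D1:**
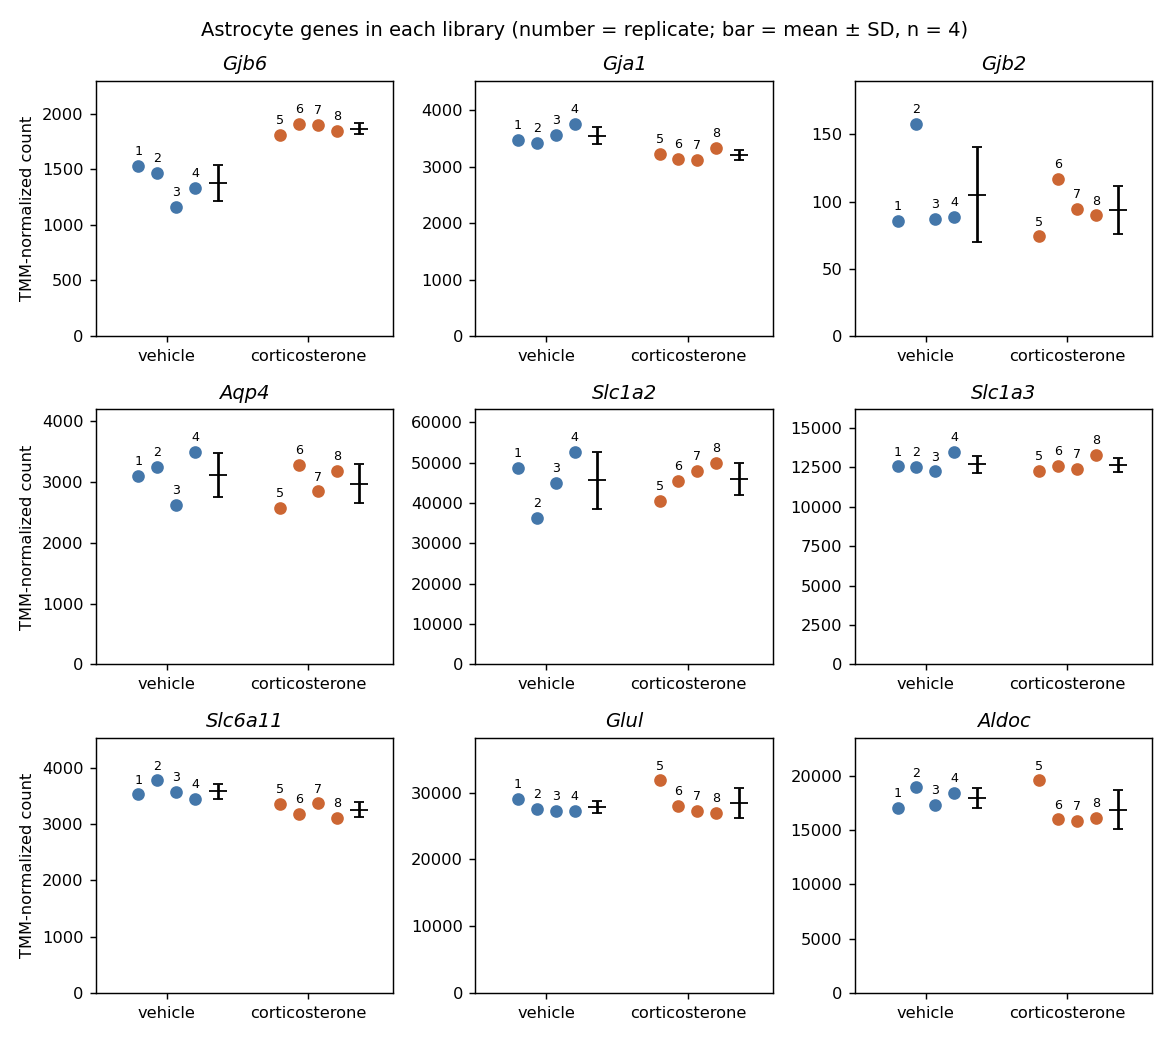
TMM-normalized read counts of the 9 genes (y axes, each from 0) in the 4 vehicle and 4 corticosterone libraries, with the replicate number above each point and the mean ± SD (n = 4) beside each group. *Gjb6* lies between 1162 and 1535 in vehicle and between 1813 and 1913 in corticosterone libraries.

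*Gjb6* encodes a connexin that in the brain is made by mature astrocytes, and lies at chr14:57123303-57133611 on the minus strand (GRCm38; ENSMUSG00000040055). It had 1535, 1471, 1162 and 1334 normalized reads in vehicle 1 to 4, and 1813, 1913, 1897 and 1843 in corticosterone 5 to 8. The lowest corticosterone library was thus above the highest vehicle library, and vehicle 3 was the lowest. The means were 1376 ± 165 in vehicle and 1867 ± 46.3 in corticosterone libraries (SD, n = 4). The log2 fold change was 0.44 (SE 0.0848, 95% interval 0.26 to 0.62), or 1.36-fold with an interval of 1.195 to 1.541. By unadjusted p value (0.000179) *Gjb6* had rank 13 of the 16018 genes, and the adjusted p value of edgeR's test was 0.196. An exact permutation test, two-sided over the 70 ways to divide the 8 libraries, gave p = 0.0286, the smallest p that 4 against 4 can give.

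Whether *Gjb6* passed the threshold depended on the test. DESeq2, the tool of the study, gave an adjusted p value of 0.00345 with its filtering at the default level, and of 0.00368 at a level of 0.05 set after seeing the data, where it called 63 genes (0.374% of those with an adjusted p value). edgeR without a filter on low counts (0.287% of genes called) gave 0.00866, with the trend of each library over GC content and transcript length removed (0.137% called) it gave 0.0252, and both marker covariates described below (0% called) gave values above the threshold. edgeR without corticosterone 5 gave a log2 fold change of 0.45 with an adjusted p value of 0.0137. Other settings gave adjusted p values above the threshold. These were 0.184 in limma-voom, and in edgeR 0.189 with upper-quartile normalization, 0.06 without vehicle 1 and 0.334 without vehicle 2. Over the 20 alternatives the log2 fold change lay between 0.36 and 0.49, and *Gjb6* was called in 7 of them. These 7 were not independent, as all reuse the same libraries. They include the same DESeq2 fit at both filtering levels. They also include edgeR, DESeq2 and the trend removal without corticosterone 5 (10.2%, 17.1% and 1.30% of genes called), the latter 2 chosen after seeing the data. No 50-base stretch of its exons was found in another gene.

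*Gja1* encodes the other main astrocyte connexin and lies at chr10:56377330-56402513 on the plus strand (ENSMUSG00000050953). Its normalized reads were 3466, 3414, 3555 and 3762 in vehicle 1 to 4, and 3229, 3138, 3120.3 and 3327 in corticosterone 5 to 8. All corticosterone libraries were below all vehicle libraries, by a narrow gap between 3327 and 3414. The means were 3549 ± 154 and 3204 ± 95.1 (SD, n = 4), a log2 fold change of -0.15 (SE 0.0625, 95% interval -0.28 to -0.01). The exact permutation test gave p = 0.0286, and the adjusted p value of edgeR's test was 0.545. With the trend of each library over GC content and transcript length removed, the log2 fold change was -0.24 (adjusted p = 0.182, edgeR), and with corticosterone 5 also left out (added once the data had been seen) it was -0.31 (adjusted p = 0.0176, edgeR), where 1.30% of genes were called. That was the 1 of 20 alternatives in which *Gja1* was called. When corticosterone 5 alone was left out, it was -0.15 and not called by either tool (adjusted p = 0.119 in edgeR and 0.0819 in DESeq2).

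*Gjb2* encodes a connexin of the same family as *Gjb6*, which in the brain is found in leptomeningeal cells, the cells of the thin membranes over the brain surface, besides astrocytes. It lies at chr14:57098600-57104702 on the minus strand (ENSMUSG00000046352). Its normalized reads were few, at 85.4, 158, 87.1 and 88.8 in vehicle 1 to 4 and 74.1, 117, 94.6 and 89.6 in corticosterone 5 to 8. Vehicle 2 was far above the other vehicle libraries, and the groups overlapped. The log2 fold change was -0.16 (SE 0.216, 95% interval -0.63 to 0.31, adjusted p = 0.778 by edgeR), and it was 0.10 without vehicle 2 and -0.06 without corticosterone 5. This interval and that of *Gjb6* overlap, and a difference between the neighbouring genes was not tested.

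In each group, the library with the most *Gjb2* reads was also the one with the most reads on markers of leptomeningeal fibroblasts. The 16 markers, such as *Dcn* and *Igf2*, which encode a matrix proteoglycan and a growth factor, summed to 4427 normalized reads in vehicle 2 (2418 to 3011 in the other vehicle libraries) and to 6297 in corticosterone 6 (3558 to 3943 in the other corticosterone libraries). All 16 were detected, 15 of them had a positive log2 fold change and 5 were higher at an unadjusted p value under 0.05 (4.51% of all genes tested). The median was 0.47, and lay between 0.29 (without corticosterone 6) and 0.77 (without vehicle 2) with a library left out. With this sum as a covariate, added once the data had been seen, the log2 fold change of *Gjb2* was -0.56 (adjusted p = 0.966, edgeR), that of *Gjb6* was 0.39 and that of *Gja1* was -0.13, each with an adjusted p value of 0.966.

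The balance of the astrocyte connexins was compared within each library, where it does not depend on library size. *Gjb6* reads came to 44.3%, 43.1%, 32.7% and 35.5% of *Gja1* reads in vehicle 1 to 4, and to 56.1%, 60.9%, 60.8% and 55.4% in corticosterone 5 to 8. The groups did not overlap, with means of 38.9 ± 5.69% and 58.3 ± 2.96% (SD, n = 4). On the log2 scale the ratio differed by 0.59, a 1.51-fold difference, and an exact permutation test gave p = 0.0286, or 0.0571 after Benjamini-Hochberg adjustment over the 4 ratios compared. With 1 library left out at a time the difference lay between 0.52 and 0.66. Both genes entered the ratio with the values given above, so it adds no independent evidence on either. These percentages compare reads, and not transcripts, since the exons of *Gja1* span 10257 bases and those of *Gjb6* 2674.

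**Figure D2:**
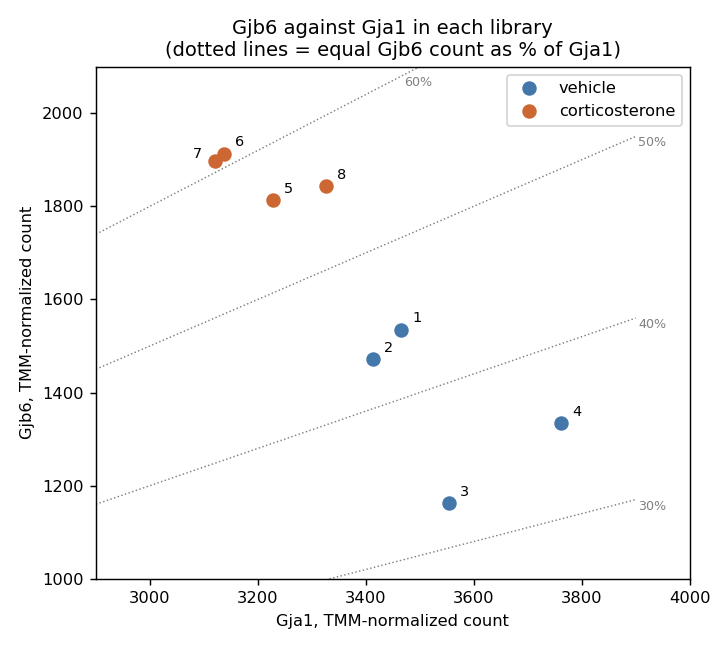
TMM-normalized reads of *Gjb6* (y axis) against those of *Gja1* (x axis) in each library, numbered by replicate, with both axes cut to the range of the data and dotted lines of equal percentage. Corticosterone libraries lie at the upper left, at 55.4% to 60.9%, and vehicle libraries at the lower right, at 32.7% to 44.3%.

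*Aqp4*, the water channel of the endfeet, lies at chr18:15389496-15410982 on the minus strand (ENSMUSG00000024411). It had 3095, 3255, 2630.2 and 3494 normalized reads in vehicle 1 to 4, and 2578, 3286, 2845 and 3188 in corticosterone 5 to 8. The groups overlapped over nearly their whole range. The log2 fold change was -0.07 (SE 0.0983, 95% interval -0.28 to 0.14, adjusted p = 0.794 by edgeR), and with the GC content and length trend removed it was -0.18 (adjusted p = 0.335).

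The transporters that clear glutamate had log2 fold changes near 0. *Slc1a2* encodes the most abundant glutamate transporter of the forebrain (chr2:102658659-102790784, plus strand, ENSMUSG00000005089). Its normalized reads were 48645, 36195, 45045 and 52615 in vehicle 1 to 4, and 40582, 45409.7, 47889.8 and 49962 in corticosterone 5 to 8. The vehicle libraries alone spanned the whole range of the corticosterone libraries. The means were 45625 ± 7006 and 45961 ± 4040.0 (SD, n = 4), and the log2 fold change was 0.01 (SE 0.106, 95% interval -0.22 to 0.24, adjusted p above 0.9 by edgeR).

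*Slc1a3*, the other main glutamate transporter of astrocytes (chr15:8634124-8710764, minus strand, ENSMUSG00000005360), had 12552, 12542, 12239 and 13471 normalized reads in vehicle and 12268, 12579, 12391 and 13284 in corticosterone libraries. The libraries lay close together, with coefficients of variation of 4.20% and 3.60%, and vehicle 4 and corticosterone 8 were the highest of their groups. The log2 fold change was -0.01 (SE 0.0623, 95% interval -0.14 to 0.13, adjusted p = 0.968 by edgeR), so that a change beyond 1.092-fold up or to below 0.906-fold lay outside the 95% interval. The ratio of *Slc1a2* to *Slc1a3* within a library differed by 0.03 on the log2 scale (exact permutation p = 0.886).

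*Slc6a11* encodes a GABA transporter of astrocytes (chr6:114131241-114249952, plus strand, ENSMUSG00000030307). Its normalized reads were 3529, 3776, 3574 and 3442 in vehicle 1 to 4, and 3364, 3182, 3369 and 3108 in corticosterone 5 to 8. All corticosterone libraries were below all vehicle libraries, with a gap of less than the SD of either group between 3369 and 3442. The means were 3580.3 ± 141 and 3256 ± 131 (SD, n = 4), the log2 fold change was -0.14 (SE 0.0633), and the exact permutation test gave p = 0.0286. The unadjusted p value of edgeR was 0.0498 and its adjusted p value was 0.545. Once the GC content and length trend was removed, the log2 fold change was -0.07 (adjusted p = 0.651, edgeR).

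*Glul* encodes glutamine synthetase, which makes glutamine from the glutamate taken up (chr1:153899944-153909723, plus strand, ENSMUSG00000026473). It had 29105, 27587, 27311 and 27259 normalized reads in vehicle 1 to 4, and 31837, 27968, 27325 and 26913 in corticosterone 5 to 8. Corticosterone 5 was the highest of all libraries, and of the other corticosterone libraries 2 lay within the vehicle range and 1 below it. The log2 fold change was 0.04 (SE 0.07, 95% interval -0.12 to 0.19, adjusted p = 0.856 by edgeR), and it was -0.02 without corticosterone 5. Of the 50-base stretches of its exons, 12.6% also occur in other genes, not split by gene here. Among these is the pseudogene *Glns-ps1*, which had 289 to 389 normalized reads in 7 libraries and 515 in corticosterone 5. The ratio of *Glul* to *Slc1a2* differed by 0.01 on the log2 scale (exact permutation p = 0.914).

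*Aldoc* encodes the brain form of aldolase, a glycolytic enzyme that in the brain marks astrocytes (chr11:78322968-78327781, plus strand, ENSMUSG00000017390). Its normalized reads were 16991, 18913, 17332 and 18432 in vehicle 1 to 4, and 19556, 15974, 15855 and 16106 in corticosterone 5 to 8. Corticosterone 5 was the highest of the 8 libraries, whereas the other corticosterone libraries were the lowest. With all libraries the log2 fold change was -0.09 (SE 0.0797, 95% interval -0.26 to 0.09, adjusted p = 0.681 by edgeR). Without corticosterone 5 it was -0.17, with an adjusted p value of 0.0928 in edgeR and 0.0352 in DESeq2, which then called 17.1% of the genes with an adjusted p value. The size of the *Aldoc* difference thus depends on 1 library.

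**Figure D3:**
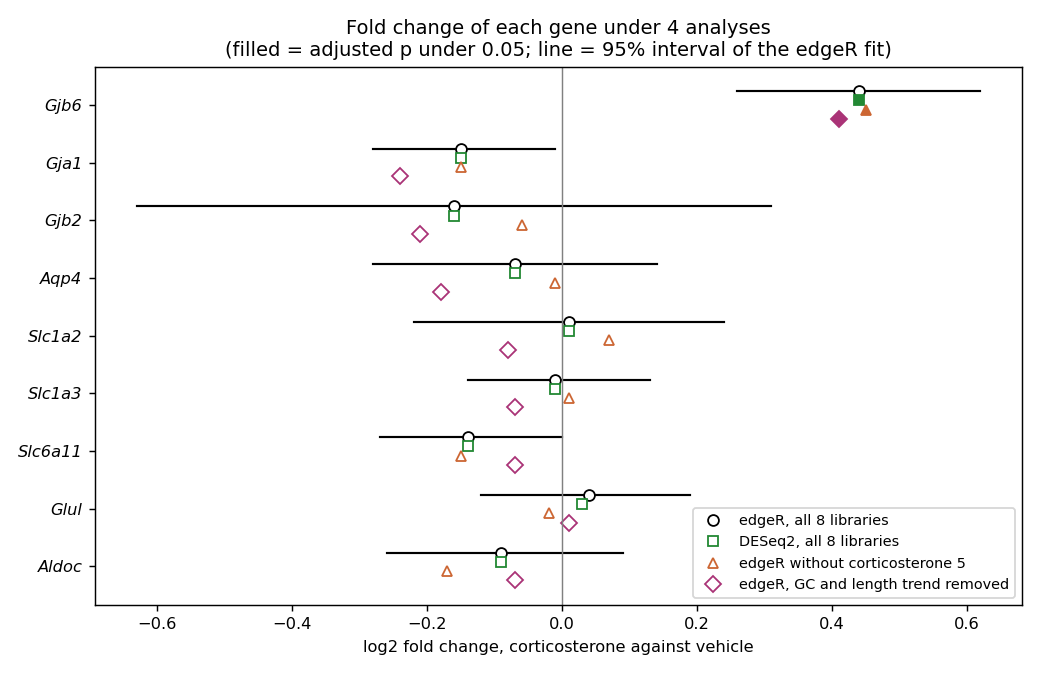
Log2 fold change of each gene, corticosterone against vehicle (x axis), in 4 analyses, with the 95% interval of the edgeR fit on all 8 libraries as a line and filled symbols for an adjusted p value under 0.05. *Gjb6* is the only gene with filled symbols, in DESeq2, without corticosterone 5 and with the GC content and length trend removed, at 0.41 to 0.45.

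In RPKM (reads scaled to exon length and library size, computed here over all exons of a gene), the levels in vehicle libraries ran from *Glul* (437 ± 13.7, SD, n = 4) and *Aldoc* (287 ± 14.5) over *Slc1a2* (181 ± 27.9) and *Slc1a3* (77.7 ± 3.26) to *Slc6a11* (37.0 ± 1.46). Below these came *Gjb6* (26.9 ± 3.23), *Aqp4* (26.1 ± 3.05), *Gja1* (18.1 ± 0.782) and *Gjb2* (2.27 ± 0.766). Neighbours in this order did not overlap between libraries, except *Gjb6* and *Aqp4*, whose levels in vehicle libraries overlapped. In corticosterone libraries *Gjb6* was at 36.4 ± 0.905 RPKM (35.4 to 37.3) and *Slc6a11* at 33.7 ± 1.36 (32.1 to 34.8), so that *Gjb6* was above *Slc6a11* in each library of the group. The place of *Gja1* depends on which exons are counted as its length: over the longest transcript of each gene it had 47.6 RPKM and had rank 5, above *Gjb6* at 34.1 RPKM.

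Other astrocyte markers gave values unlike those of *Gjb6*. Of 16 further markers, all detected, 13 had a negative log2 fold change, and the median was -0.11. The most abundant, *Sparcl1* and *Apoe*, which encode a matrix protein and a lipid carrier, had log2 fold changes of 0.11 and -0.22 (adjusted p = 0.587 and 0.62, edgeR). The summed reads of the list were 105870.4 to 117938 in vehicle and 101072 to 117621 in corticosterone libraries, with corticosterone 5 the highest of its group and 101072 to 104041 in the other 3. Relative to the mean of these markers within a library, *Gjb6* was 1.48-fold higher in corticosterone libraries (0.56 on the log2 scale, exact permutation p = 0.0286, 0.0571 adjusted over the 4 ratios), and with 1 library left out at a time the difference lay between 0.48 and 0.64. *Gjb6* entered this ratio with the values given above, so the ratio adds no independent evidence on it. *Sox9*, an astrocyte transcription factor named here after its values were seen, was the one marker with an unadjusted p value under 0.05, with 313, 433, 518 and 376 normalized reads in vehicle and 297, 230.0, 222 and 267 in corticosterone libraries (log2 fold change -0.69, adjusted p = 0.236, edgeR).

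**Figure D4:**
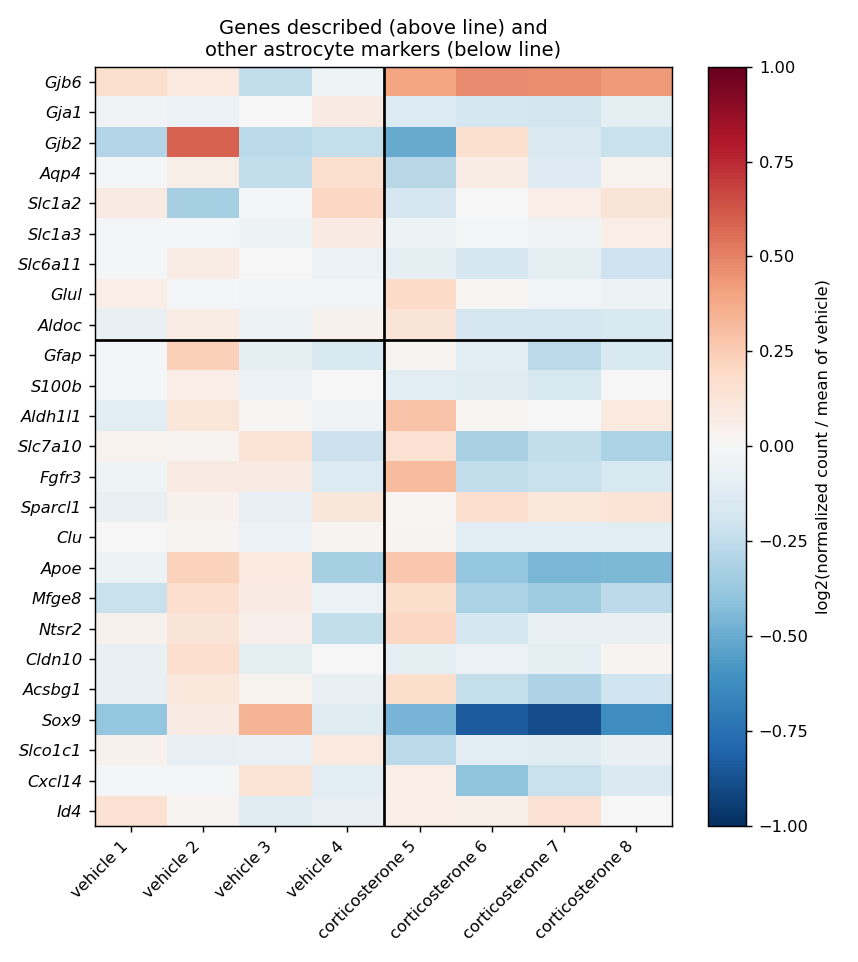
Heat map of log2(normalized reads divided by the vehicle mean) for the 9 genes (above the horizontal line) and 16 other astrocyte markers (below it) in each library, with red above and blue below the vehicle mean. *Gjb6* is red in all 4 corticosterone libraries, while most markers are blue in corticosterone 6 to 8, with *Sox9* at the extreme (222 to 267 reads, against 297 in corticosterone 5 and 313 to 518 in vehicle libraries).

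Other genes of the same pathways were counted from 4 lists of 77 genes, of which 62 were tested. By edgeR, 0 had an adjusted p value under 0.05, 3 were higher and 4 lower at an unadjusted p value under 0.05 (4.51% and 4.52% of all genes tested), and the median log2 fold change was 0.01.

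Among 20 other connexins and pannexins, 8 were tested, with a median of -0.16. This median was not stable: it was 0.02 in DESeq2 and in edgeR without the low-count filter, both of which include further genes with few reads, and lay between -0.32 (without vehicle 4) and -0.01 (without corticosterone 6) with a library left out. *Gjb1*, a connexin of oligodendrocytes, had 204, 253, 159 and 145 normalized reads in vehicle and 141, 102, 144 and 121 in corticosterone libraries, without overlap (log2 fold change -0.58, SE 0.18, adjusted p = 0.442, edgeR). *Gjc3* (-0.29), also of oligodendrocytes, and *Panx2* (-0.29), a pannexin of neurons and glia, overlapped between the groups. The 8 oligodendrocyte markers all had negative log2 fold changes, with a median of -0.30 that was -0.09 without vehicle 1, and *Mbp*, which encodes a myelin protein, stood at -0.46. Their summed reads were 108726 in vehicle 1, 61691 to 80788 in the other vehicle libraries and 60381 to 74768 in corticosterone libraries, and their part in the connexin values was not tested.

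Of 25 other genes of glutamate, glutamine and GABA handling, 23 were tested, with a median of 0.01, 2 higher and 2 lower at an unadjusted p value under 0.05. *Slc38a2*, a neutral amino acid transporter that carries glutamine, had 2170.5, 2040.3, 1907 and 2129 normalized reads in vehicle and 2233, 2543, 2322 and 2326 in corticosterone libraries, without overlap (log2 fold change 0.19, SE 0.0697, adjusted p = 0.499, edgeR). *Slc38a5*, another glutamine transporter, had 29.4 to 40.5 in vehicle and 19.5 to 23.9 in corticosterone libraries (-0.70, adjusted p = 0.443). *Slc1a5* (0.90), with 9.87 to 44.1 reads, and *Slc38a3* (-0.26), the main glutamine exporter of astrocytes, overlapped between the groups.

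Of 18 genes of the endfoot and of ion handling, 17 were tested, with a median of -0.03 and 0 at an unadjusted p value under 0.05. Among those with the lowest p values were *Lama2* (0.20), a laminin chain, *Trpv4* (0.39), a cation channel with 23.5 to 25.7 reads in vehicle and 27.3 to 44.1 in corticosterone libraries, and *Agrn* (-0.19), a matrix proteoglycan. All 14 genes of glycolysis, glycogen and lactate were tested, with a median of -0.02, or -0.11 without corticosterone 5. *Slc2a1*, the glucose transporter of vessels and astrocytes, was the one gene of this list with an unadjusted p value under 0.05, with 2511, 1781, 1791 and 1482 normalized reads in vehicle and 2690.3, 2428, 2852 and 2432 in corticosterone libraries (log2 fold change 0.46, SE 0.13, adjusted p = 0.394, edgeR). Vehicle 1 lay within the corticosterone range. *Gys1*, glycogen synthase, did not overlap, at 433 to 452 in vehicle and 363 to 424 in corticosterone libraries (-0.17, adjusted p = 0.545), and *Slc16a1* (-0.11), a lactate transporter, and *Aldoa* (-0.09), the aldolase of most tissues, followed.

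**Figure D5:**
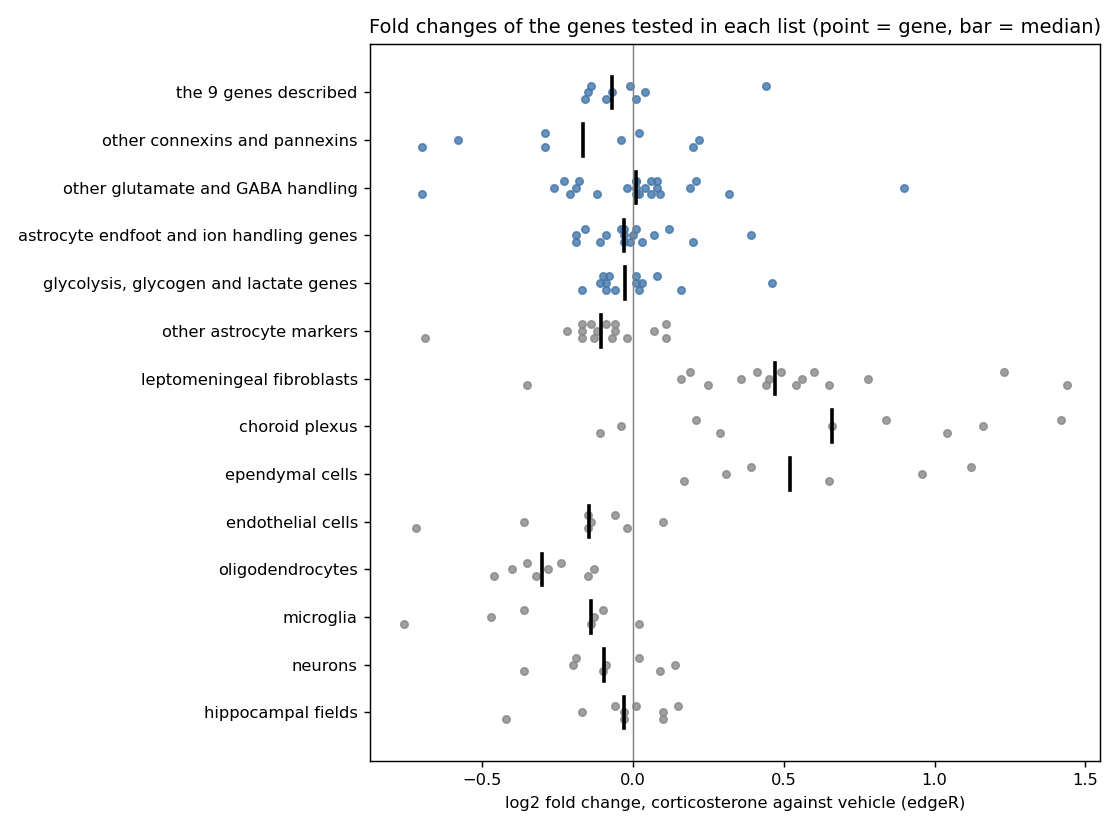
Log2 fold change of each gene tested (points) and the median (bars) of the 9 genes, the 4 lists of related genes and the 9 lists of cell type markers. The medians of the related lists lie between -0.16 and 0.01, and those of leptomeningeal fibroblasts, choroid plexus and ependymal cells at 0.47, 0.66 and 0.52, with *Gjb6* the single point at 0.44 among the 9 genes.

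Markers of cells that border the hippocampus had positive medians, but their summed reads overlapped between the groups and none was called. Those of the choroid plexus had a median of 0.66 (7 of 9 tested positive), which was 0.39 without corticosterone 5 and lay between 0.37 (without vehicle 4) and 1.18 (without vehicle 1) with a library left out. They summed to 527 to 1470.2 reads in vehicle and 759 to 1511 in corticosterone libraries. The most abundant were *Ttr*, a carrier of thyroid hormone, at 64.2 to 832 and 214 to 846, and *Kl*, at 325 to 388 and 322 to 353. With the choroid plexus sum as a covariate, chosen after seeing the data, the log2 fold change of *Gjb6* was 0.38 (adjusted p = 0.299, edgeR). Ependymal markers, with a median of 0.52 (0.26 without corticosterone 8, 0.85 without vehicle 1), summed to 197 to 285 and 181 to 478, led by *Foxj1* and *Rarres2*, and *Mia* had at most 1.08 reads in any library. Endothelial markers (*Flt1* and *Itm2a* the most abundant) had a median of -0.14, or -0.07 without corticosterone 5, and their sums did not overlap, at 3066 to 3319.5 in vehicle and 2787 to 3019 in corticosterone libraries. Microglial markers (*Csf1r* among the most abundant) had a median of -0.14, or -0.30 without corticosterone 5. Of these 7 markers, 2 were lower at an unadjusted p value under 0.05 (edgeR, 4.52% of all genes). Both were without overlap between the groups (1.68% of all genes, lower). At that p value, 2 of 8 endothelial, 2 of 8 neuronal and 3 of 8 oligodendrocyte markers were also lower. Higher were 2 of 9 choroid plexus and 2 of 6 ependymal markers tested. Neuronal markers (*Camk2a* and *Snap25*) had a median of -0.10, and markers of the hippocampal fields (*Fibcd1* and *Zbtb20*), all of them detected, of -0.03. The part of the ependymal, endothelial, microglial and neuronal markers in the values of the 9 genes was not tested.

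The genes whose values followed *Gjb6* most closely over the 8 libraries, among 11637 genes with a mean of at least 100 normalized reads, were *Ampd3* (Pearson's r of log2 values 0.97), which encodes an AMP deaminase, *Ccn2* (0.97), a matricellular growth factor, *Utp3* (0.96), of ribosome assembly, *Gm9294* (0.96) and *Eef1b2* (0.95), an elongation factor. *Ccn2* had 279, 227, 148 and 222 normalized reads in vehicle and 359, 372, 319 and 333 in corticosterone libraries. It was lowest in vehicle 3, as *Gjb6* was. For *Gja1* they were *Gramd3* (0.96), *Gdf11* (0.95), *Gtf2i* (0.95), *Slc14a1* (0.94), a urea transporter of astrocytes, and *P2ry13* (0.94), a purine receptor of microglia. These coefficients include the difference between the groups and shared library effects, and the genes were selected as the highest of many. None of the 10 had an adjusted p value under 0.05 by edgeR.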

How the data were processed

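Bulk RNA-seq libraries of ventral hippocampus from 4 vehicle and 4 corticosterone mice were analysed. RNA was enriched for mRNA and sequenced as stranded, paired 100-base reads. According to the study's methods, the authors used GSnap for alignment to mm10 and HTSeq-count 0.6.0 for counting, and the deposited values are raw, unnormalized counts. The annotation release and strand setting of the counting are not given in the sources used here. Rows that name no gene (13.7% to 15.4% of reads) were left out, and 0 columns were unused. Groups were taken from the labels.

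Counts were filtered with filterByExpr, normalized by TMM and tested with edgeR 4.0.16 (quasi-likelihood test, Benjamini-Hochberg adjustment over 16018 genes, threshold 0.05) in R 4.3.3. Log2 values used a prior count of 2. The edgeR, limma-voom and DESeq2 fits were tested on simulated data. Of 50686 identifiers, 50462 matched GENCODE M21 (GRCm38). Alternatives were DESeq2 1.42.0, other normalizations and filters, limma-voom 3.58.1, removal of each library's trend over GC content and length (splines with 5 degrees of freedom), and each library left out. DESeq2's independent filtering was first run at its default of 0.1 and then set to 0.05, the threshold used here, after its results had been seen, and both are given. Single genes and ratios were also compared by exact permutation tests, two-sided over 70 assignments. Named were all 9 genes, the 4 genes of lowest p value in each related list, the 2 most abundant genes of each marker list, the 5 genes most like *Gjb6* and *Gja1*, and *Fkbp5*, except genes not reported here, which stay in the list counts. The genes and lists were chosen with earlier results of these data known.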

Additional observations from a re-analysis of the deposited data

Results flagged for a closer look

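In groups of 4 libraries, a library was singled out where its gap to the nearest other, divided by the range of the group, exceeded Dixon's 95% critical value. This held for 7 of 72 sets of values, where chance would give about 3.60, and 2 of the 7 were in corticosterone 5. *Gjb2* in vehicle 2 was 158 normalized reads, with 85.4 to 88.8 in the other vehicle libraries. *Aldoc* in corticosterone 5 was 19556, with 15855 to 16106 in the others. In the same library, the sum of the hippocampal field markers was 17702 (16369 to 16588). The sum of leptomeningeal markers in corticosterone 6 was 6297 (3558 to 3943). Among vehicle libraries, *Gjc3* was 811 in vehicle 1 (502 to 541), *Slc16a1* was 545 in vehicle 1 (602 to 604), and *Trpv4* was 23.5 in vehicle 3 (25.5 to 25.7). The causes were not tested.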

How the results depend on the processing

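No paired analysis was possible because replicates are numbered 1 to 4 in vehicle and 5 to 8 in corticosterone, with no number in common. The fold changes of the 9 genes under 20 alternatives gave 180 values, of which 156 kept their direction and side of the threshold, 9 passed it (*Gjb6* 7, *Gja1* 1, *Aldoc* 1) and 15 had the other sign, all with edgeR or DESeq2 adjusted p values above 0.5. The 5 alternatives chosen after seeing the data were the trend removal and DESeq2 without corticosterone 5, the 2 marker covariates, and a change of DESeq2's filtering level from its default to 0.05, so that the DESeq2 values given without a level are those of a setting chosen after seeing the data.

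edgeR called 1 gene in the whole table. DESeq2 called 63 (64 at its default filtering), edgeR without a filter on low counts 79, with the GC content and length trend removed 22, and 0 when each library had to hold at least 10 reads. With a library left out, the count ran from 0 to 1651, the latter without corticosterone 5, and it was 19 without vehicle 1. Without corticosterone 5, removing the trend gave 210 and DESeq2 gave 2214. Both marker covariates gave 0, with 593 (leptomeningeal) and 1869 (choroid plexus) genes at an unadjusted p value under 0.05.

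Of the 9 genes, edgeR called 0, and 1 (*Gjb6*) was called by DESeq2 at either filtering, without the low-count filter and with the trend removed. With a library left out, 0 to 1 were called, the 1 without corticosterone 5, where 10.2% of all genes were called. Also without corticosterone 5, the trend removal and DESeq2 each called 2, against 1.30% and 17.1% of all genes. The number at an unadjusted p value under 0.05 was 3. It was 1 without the low-count filter and 1 with the choroid plexus covariate, and 1 to 4 with a library left out (1 without vehicle 3, corticosterone 6 or corticosterone 7, each time *Gjb6*). Over all genes, 9.03% were under 0.05 in the main fit. The counts were 4696 of 16181 genes without corticosterone 5, 2445 of 27483 without the low-count filter and 1869 of 16018 with the choroid plexus covariate. Of the 77 related genes (62 tested in the main fit) 0 were called, and 1 without the low-count filter (0.287% of all genes). With a library left out, 0 to 7 were called. The number was 1 without vehicle 1, where 19 genes were called in all, and 7 without corticosterone 5 (10.2% of all genes). Also without corticosterone 5, 1 was called with the trend removed (1.30% of all genes) and 11 by DESeq2 (17.1%).

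With a library left out, the log2 fold change ranged from -0.28 to 0.10 for *Gjb2*, -0.09 to 0.08 for *Slc1a2*, -0.04 to 0.02 for *Slc1a3* and -0.02 to 0.06 for *Glul*. For *Gjb2* it was 0.10 without vehicle 2. That of *Slc1a2* was -0.08 with the trend removed, -0.07 with corticosterone 5 also left out, and -0.09, -0.01 and -0.03 without vehicle 2, corticosterone 7 and corticosterone 8. That of *Slc1a3* was 0.02, 0.01 and 0.0011 without vehicle 4, corticosterone 5 and corticosterone 7, 0.0043 by DESeq2 without corticosterone 5, and 0.01 with the choroid plexus covariate. That of *Glul* was -0.02 without corticosterone 5 in edgeR and in DESeq2, -0.05 with the trend removed as well, and -0.01 with the choroid plexus covariate. Fewer samples, a removed trend, an added covariate or another noise estimate enter these fits, and the cause of each shift was not tested. *Gjb2* had few reads, 74.1 to 158 per library.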
